A study of Mus musculus with 6 samples.

Results

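The Akr1c genes encode aldo-keto reductases of the hydroxysteroid dehydrogenase type, and 6 of them (Akr1c6, Akr1c12, Akr1c13, Akr1c14, Akr1c18 and Akr1cl) were followed in bone marrow-derived basophils (BMBAs) given interleukin-3 (IL-3). They were taken by symbol from a count table of 37043 gene symbols, because Akr1c13 and Akr1c18 were known from these libraries to rise strongly with IL-3. Their change with IL-3 is therefore described here and not tested. Of the 6 genes, 3 (Akr1c13, Akr1c12 and Akr1c18) had enough reads to enter the fit, Akr1cl had too few, and Akr1c6 and Akr1c14 had 0 counts in every library.

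BMBAs were grown from wild-type C57BL/6J bone marrow for 7 days at 0.3 ng/mL of IL-3, as the study's methods state for this protocol, so the unstimulated cells had also grown in this cytokine. Cells were enriched with beads against CD49b, an integrin subunit carried by basophils, and were then given PBS or 10 ng/mL of IL-3 for 6 h, with 3 libraries in each group. By the study's legend each library came from a culture of its own; whether the cultures came from separate mice is not stated in the sources used here, so the errors measure the spread between cultures. Each library was whole-transcriptome RNA-seq of a cell population, and held between 10537540 and 13999287 counts. Basophil markers were present in all 6 libraries: Mcpt8, a granule protease of basophils, stood at 3066 ± 171 CPM (SD, n = 3) with PBS and 5895 ± 178 with IL-3, CPM being counts per 1000000 after TMM scaling of the libraries. Cd200r3, a surface receptor of basophils, stood at 581 ± 39.7 and 1446 ± 19.2 CPM, and Prss34, a further basophil protease, at 5615 ± 323 and 5661 ± 183 CPM. Markers of monocytes and macrophages were present as well. With PBS, 10 of them summed to 11770 to 12707 CPM, beside 10971 to 12223 CPM for 9 basophil markers. With IL-3 these sums were 6176 to 6809 and 17313 to 17575 CPM.

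Enzymes of this family use NADPH to reduce a carbonyl group to an alcohol, on steroids, prostaglandins and reactive aldehydes. Akr1c18 encodes the enzyme that reduces progesterone to an inactive hydroxy form in the mouse ovary, which ends progesterone action before birth. IL-3 itself was first tracked during its purification by the hydroxysteroid dehydrogenase activity that it brought about in cultured mouse spleen cells. Akr1c14 is a hydroxysteroid dehydrogenase acting on androgens and Akr1c6 is one best known from liver. Most genes of the family lie side by side on a single mouse chromosome, a layout left by repeated gene duplication.

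Of the 6 genes, 5 lay on chromosome 13 in GRCm38 (GENCODE M21 annotation). Akr1c18 (ENSMUSG00000021214) spanned 4132615 to 4150654 on the minus strand, Akr1c13 (ENSMUSG00000021213) 4191150 to 4205596 on the plus strand, and Akr1c12 (ENSMUSG00000021211) 4268176 to 4279433 on the minus strand. Akr1c14 (ENSMUSG00000033715), at 4049011 to 4090688, and Akr1c6 (ENSMUSG00000021210), at 4434306 to 4457877, lay outside these 3 genes, both on the plus strand. Akr1cl (ENSMUSG00000025955) lay on chromosome 1, at 65012689 to 65032759 on the minus strand. The 3 expressed genes were thus adjacent members of the family apart from Akr1c19, which lay between Akr1c13 and Akr1c12.

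Akr1c13 and Akr1c12 are recent copies of each other, and this bears on how their reads can be counted. Their coding sequences of 969 bases were identical at 932 positions (96.2%), with a longest identical run of 228 bases. Akr1c18 matched Akr1c13 at 74.1% and Akr1c12 at 74.3% of aligned positions. The stretch of coding bases 343 to 402 is shown because it holds 9 differences between Akr1c13 and Akr1c12, by which reads of the 2 genes can be told apart. Capitals mark the bases that differ between Akr1c13 and Akr1c12, and in Akr1c18 the 19 bases that differ from Akr1c13.
Akr1c13: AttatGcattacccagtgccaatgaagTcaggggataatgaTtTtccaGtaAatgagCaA
Akr1c12: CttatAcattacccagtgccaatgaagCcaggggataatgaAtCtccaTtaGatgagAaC
Akr1c18: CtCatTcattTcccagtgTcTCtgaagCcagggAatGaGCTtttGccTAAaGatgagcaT

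**Figure D1:**
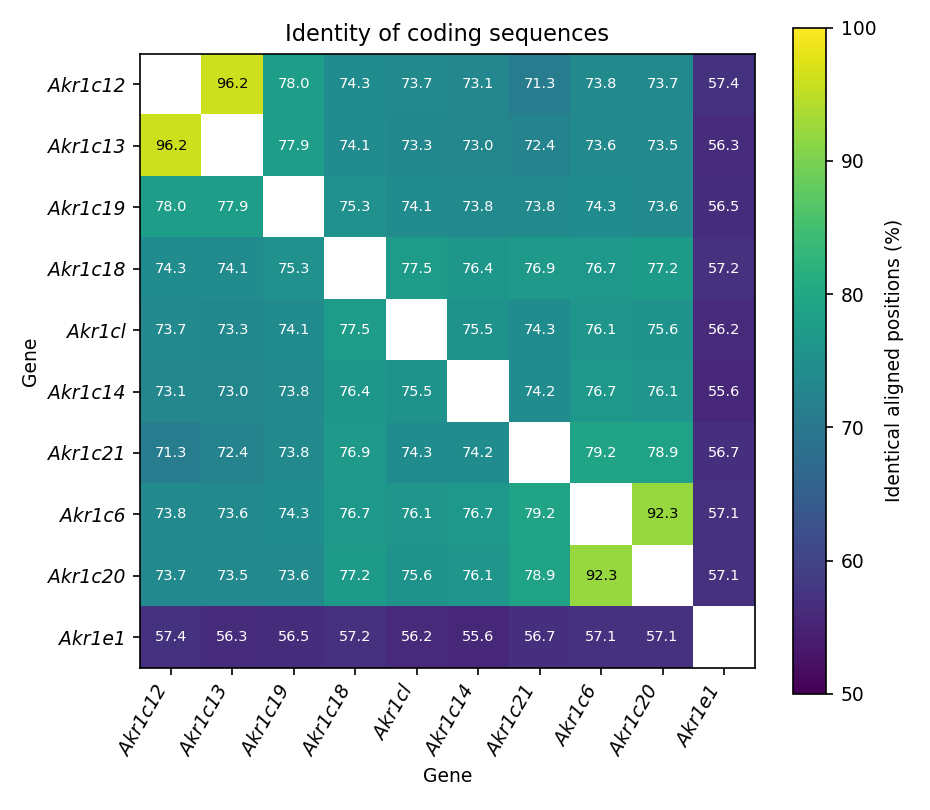
Identity between the coding sequences of the Akr1c family and Akr1e1 in GRCm38, as the percentage of aligned positions that are identical (colour and printed values, both axes list the genes). Akr1c12 and Akr1c13 share 96.2% of positions and Akr1c6 and Akr1c20 share 92.3%, while Akr1c18 matches Akr1c13 at 74.1%.

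The bases just before the annotated starts of the 3 expressed genes are shown because the genes rose together, and to set the upstream sequence of Akr1c18 beside the near-identical ones of Akr1c13 and Akr1c12. They come from the RefSeq promoter table on GRCm38.p6, in which all 6 genes had an entry, and run 5′ to 3′ on the gene's strand: Akr1c13 at chr13:4190937-4191149 (plus strand), Akr1c12 at chr13:4279434-4279649 (minus strand) and Akr1c18 at chr13:4150655-4150896 (minus strand). Capitals mark positions at which Akr1c13 and Akr1c12 differ, gaps included.
Akr1c13: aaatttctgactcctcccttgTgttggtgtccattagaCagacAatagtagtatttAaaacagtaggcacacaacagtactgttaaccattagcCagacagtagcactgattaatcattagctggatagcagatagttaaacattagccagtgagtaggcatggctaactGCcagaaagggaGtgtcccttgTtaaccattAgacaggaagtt
Akr1c12: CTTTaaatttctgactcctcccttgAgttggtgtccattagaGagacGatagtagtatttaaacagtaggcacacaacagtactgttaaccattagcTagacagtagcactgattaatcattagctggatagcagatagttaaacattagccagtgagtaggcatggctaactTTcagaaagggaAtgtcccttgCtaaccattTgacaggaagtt
Akr1c18: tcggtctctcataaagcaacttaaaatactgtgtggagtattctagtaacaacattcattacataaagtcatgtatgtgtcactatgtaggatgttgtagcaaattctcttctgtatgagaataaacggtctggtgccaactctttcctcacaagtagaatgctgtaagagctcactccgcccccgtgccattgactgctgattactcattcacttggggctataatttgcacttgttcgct

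The upstream sequences of Akr1c13 and Akr1c12 were identical at 203 of 217 aligned positions (93.5%), with an unbroken run of 75 bases. Over the 250 bases before the RefSeq start, Akr1c13 and Akr1c18 matched at 45.9% of positions. Windows of 300 bases, from 250 before to 50 after the RefSeq start, were searched on both strands for 5 short motifs. These were the STAT motif TTCNNNGAA, found in 8.30% of 32851 mouse promoters of this length, the antioxidant response core TGACNNNGC (12.4%), the GATA core AGATAA (11.2%), the AP-1 motif TGANTCA (7.81%) and the TATA box TATAAA (13.6%). None of these letter strings occurred in the windows of Akr1c12, Akr1c13, Akr1c18 or Akr1c14. The window of Akr1cl held TGACNNNGC and AGATAA, and that of Akr1c6 held TATAAA.

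Akr1c13 was the most abundant of the 6 genes in both groups. Its counts were 584, 554 and 552 with PBS and 5538, 6778 and 7558 with IL-3. Normalised expression was 47.8, 48.6 and 48.6 CPM with PBS and 547, 564 and 586 CPM with IL-3. Every IL-3 library thus stood above every PBS library, and within each group the libraries lay close together, with a coefficient of variation of 0.985% with PBS and 3.49% with IL-3. The log2 fold change was 3.55 (SE 0.0572), or 11.7-fold. With PBS, 3305 genes had a higher CPM than Akr1c13, and with IL-3, 187 genes did.

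Akr1c12, whose product is closely related in sequence to that of Akr1c13, had counts of 166, 129 and 163 with PBS and 1500, 1829 and 2136 with IL-3. In CPM these were 13.6, 11.3 and 14.4 with PBS and 148, 152 and 166 with IL-3. The groups did not overlap. The log2 fold change was 3.57 (SE 0.0870), or 11.9-fold, which differed from that of Akr1c13 by less than either standard error.

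Akr1c18, the progesterone-reducing enzyme, had few reads with PBS, at 21, 16 and 19 counts, and 389, 460 and 588 counts with IL-3. Normalised expression was 1.72, 1.40 and 1.67 CPM with PBS and 38.4, 38.3 and 45.6 CPM with IL-3. No PBS library came near an IL-3 library. The log2 fold change of 4.66 (SE 0.155), or 25.3-fold, was larger than that of the other 2 genes, and 6 of the 16675 genes tested had a larger one. Akr1c18 was chosen for its rise in this contrast, so nothing is read from this rank. A limit of 3 counts corresponded to 0.233 to 0.296 CPM in these libraries, which covers counting error only.

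**Figure D2:**
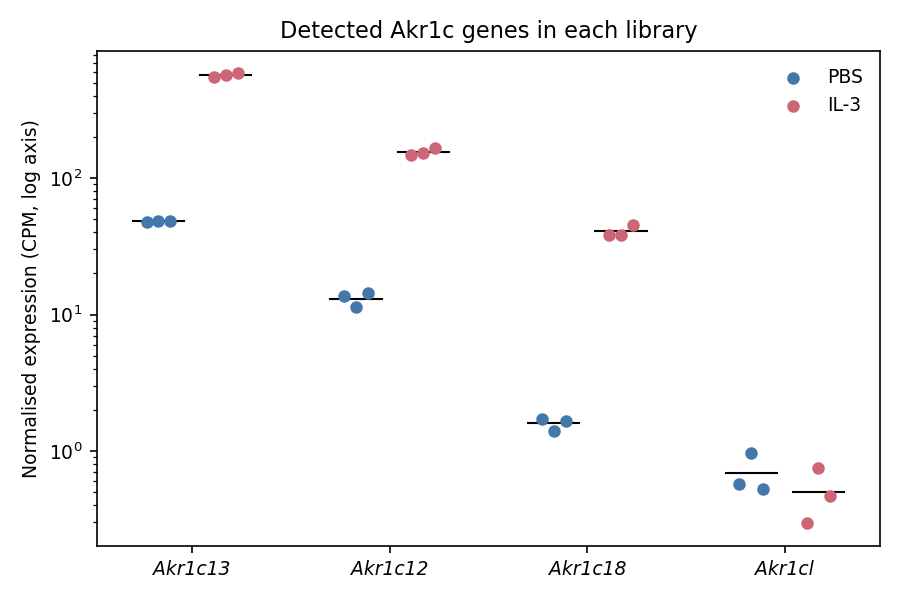
Normalised expression of the 4 detected Akr1c genes in each library, in CPM on a log axis, with PBS in blue and IL-3 in red. Points are libraries and lines are group means (n = 3). Akr1c13, Akr1c12 and Akr1c18 stand higher in every IL-3 library, Akr1cl lies between 0.296 and 0.965 CPM throughout, and Akr1c6 and Akr1c14 had 0 counts and are not drawn.

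The remaining 3 genes gave few or no reads. Akr1cl had 7, 11 and 6 counts with PBS and 3, 9 and 6 with IL-3, so that its groups overlapped. Its mean level was 0.688 ± 0.240 CPM with PBS and 0.504 ± 0.229 CPM with IL-3 (SD, n = 3). Akr1c6 and Akr1c14 had 0 counts in all 6 libraries, which allows up to 3 counts in each. Fitted without the filter on low counts, Akr1cl had a log2 fold change of -0.41 (SE 0.562), and a small difference was not detectable at this depth. Akr1c6 and Akr1c14 gave no reads to compare.

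All 3 tested members were called higher with IL-3. Beside them, 38.2% of the 16675 genes tested were called in either direction and 18.0% were called higher, in an edgeR quasi-likelihood test at an adjusted p under 0.05, with 3003 genes higher and 3372 lower. Scaling by library totals in place of TMM gave 1698 higher and 5030 lower. All 3 IL-3 libraries stood above all 3 PBS libraries in 23.8% of the genes tested, and beyond them in either direction in 48.2%. The median log2 fold change was 3.57 over the 3 members and -0.0033 over all genes tested. Since the genes were picked from this contrast, nothing is read from these counts.

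Per kilobase of transcript, levels can be set side by side between genes. Akr1c13 stood at 38.3 ± 0.377 CPM per kb with PBS and 448 ± 15.7 with IL-3. Akr1c12 stood at 10.4 ± 1.26 and 123 ± 7.28 CPM per kb, and Akr1c18 at 1.33 ± 0.142 and 34.0 ± 3.49 CPM per kb. The order Akr1c13, Akr1c12, Akr1c18 was the same in both groups, and neighbours in this order differed by more than their spread. Together, the 6 genes took 66.3, 65.5 and 69.7 of every 1000000 counts with PBS and 705, 715 and 735 with IL-3. With the reads of the 6 genes summed into 1, the log2 fold change was 3.58.

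Ratios within a library do not depend on how libraries are scaled. The counts of Akr1c12 were 28.4%, 23.3% and 29.5% of those of Akr1c13 with PBS and 27.1%, 27.0% and 28.3% with IL-3. These groups overlapped, at 27.1% ± 3.33 and 27.4% ± 0.710 (SD, n = 3). The counts of Akr1c18 were 3.60%, 2.89% and 3.44% of those of Akr1c13 with PBS and 7.02%, 6.79% and 7.78% with IL-3. Here the groups did not overlap, at 3.31% ± 0.372 and 7.20% ± 0.519. The share of Akr1c18 in all counts of the 6 genes was 2.51% with PBS and 5.34% with IL-3 on average, and that of Akr1c13 was 75.9% with PBS and 74.2% with IL-3.

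**Figure D3:**
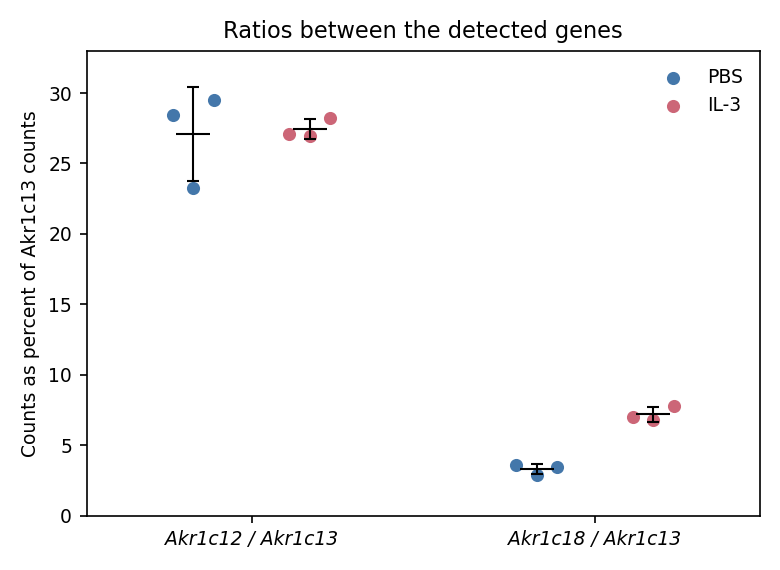
Counts of Akr1c12 and of Akr1c18 as a percentage of the counts of Akr1c13 in the same library, with PBS in blue and IL-3 in red. Points are libraries and black bars are the mean ± SD (n = 3). The Akr1c12 ratio overlaps between groups near 27%, and the Akr1c18 ratio is 2.89% to 3.60% with PBS and 6.79% to 7.78% with IL-3.

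Reads of Akr1c13 and Akr1c12 cannot be fully told apart. Of the 50-base words in the transcripts of Akr1c12, 28.6% also occur in Akr1c13, and 24.2% of those of Akr1c13 occur in Akr1c12. For 100-base words the shares were 11.5% and 9.36%. Akr1c18 shared 0.581% of its 50-base words, with Akr1cl, and none of 100 bases. The sources used here do not give how reads that match 2 genes were assigned, so the values of Akr1c13 and Akr1c12 are uncertain as a split, and the part of shared reads in their near-equal fold changes was not tested.

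The other Akr genes of the locus gave few reads or were not called. Akr1c19, which lies between Akr1c13 and Akr1c12, had 9, 7 and 5 counts with PBS and 8, 15 and 11 with IL-3, too few to be tested. Akr1c20 had 1 count over the 3 PBS libraries and 3 over the IL-3 libraries. Akr1c21, a further hydroxysteroid dehydrogenase, had 0, 0 and 1 counts with PBS and 4, 3 and 4 with IL-3, all near the floor of 3 counts. Akr1e1, an aldo-keto reductase at the far end of the cluster, was the 1 of these 4 genes to be tested. It stood at 8.92, 8.59 and 5.37 CPM with PBS and 6.32, 5.91 and 4.50 CPM with IL-3, which overlap, and its log2 fold change of -0.46 (SE 0.212) was not called (edgeR adjusted p = 0.101). It was called lower without PBS replicate 3 (log2 fold change -0.66, adjusted p = 0.0160).

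Of 36 genes listed, in or within 500 kb of the chromosome 13 members or fixed by name, 29 were in the table and 14 were tested. Of these 14, 3 were called higher and 0 lower, beside 18.0% and 20.2% of all genes tested, and their median log2 fold change was 0.03. The share called higher was near that of all genes. Scaling by library totals gave 1 higher and 2 lower, and without PBS replicate 3 there were 4 higher and 1 lower. Gm9973, a transcribed pseudogene between Akr1c12 and Akr1c6, stood at 15.0, 16.7 and 17.4 CPM with PBS and 29.1, 26.0 and 32.4 CPM with IL-3. The groups did not overlap, and its log2 fold change was 0.84 (SE 0.114, edgeR adjusted p = 2.28e-05). By the number of identical positions, its best match in the family was to Akr1c19, at 77.0% of 256 aligned positions. Some shorter alignments had higher percentages. Gm9973 shared no 50-base word with any gene of the family. Its span holds that of the pseudogene Gm47951 (6.38 ± 0.897 and 6.38 ± 0.362 CPM), and whether their transcripts share sequence was not tested.

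The other 2 were Klf6, a transcription factor whose start lay 1670 kb from that of Akr1c13, and Gdi2, a regulator of Rab proteins. Klf6 rose by 0.31 on the log2 scale (edgeR adjusted p = 0.000972), from 216 ± 11.4 to 267 ± 19.6 CPM. Gdi2 rose by 0.21 (edgeR adjusted p = 0.00358), from 325 ± 1.43 to 377 ± 17.3 CPM. Scaling by library totals, which lowers the median of all genes by 0.16, ended both calls, at log2 fold changes of 0.15 and 0.050, and called Akr1e1 (-0.62, adjusted p = 0.0274) and Asb13 (-0.49, adjusted p = 0.0376) lower. Net1 stood at 9.76 ± 0.381 and 9.27 ± 1.49 CPM and Asb13, a subunit of ubiquitin ligases, at 7.65 ± 1.39 and 6.12 ± 0.514 CPM, and neither was called with TMM scaling. Small log2 fold changes were also seen for Gm47853 (-0.17), Gm47904 (-0.19), Gm47951 (0.0018), Rpl29-ps2 (-0.02) and Gm47450 (0.05), and Gm40655 and Pitrm1 stood at 0.34 and 0.20, with none called. The lowest and highest log2 fold changes of the 11 genes not called were -0.46 for Akr1e1 and 0.76 for the long non-coding RNA Gm40658.

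**Figure D4:**
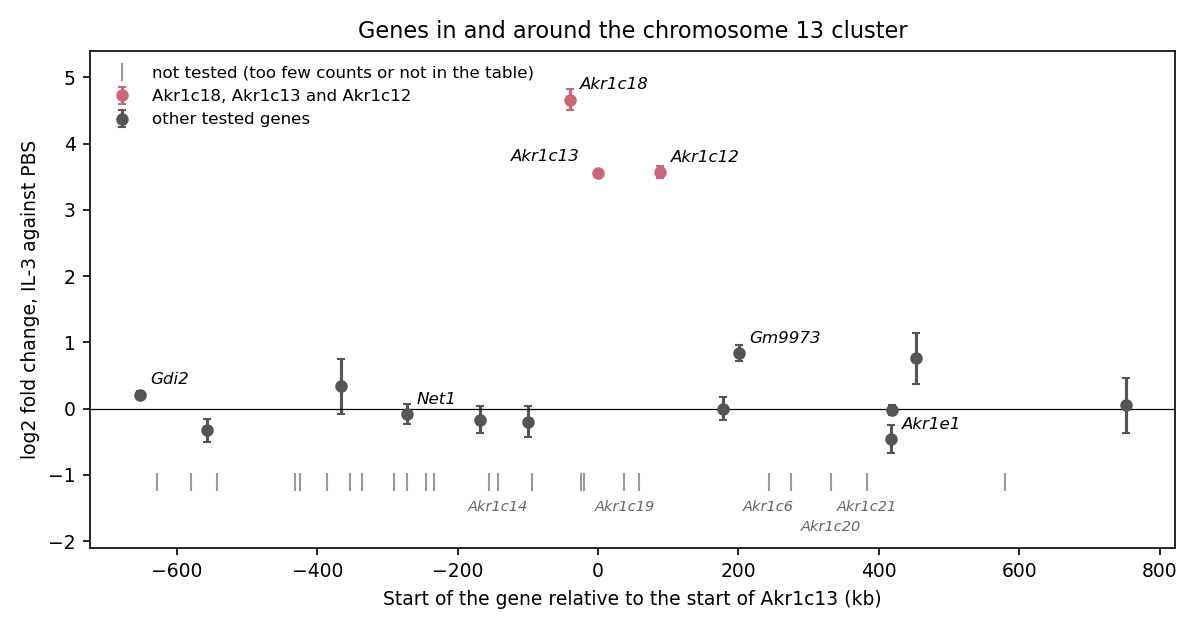
Log2 fold change with IL-3 (y axis, bars are standard errors) against the start of each gene relative to that of Akr1c13 in kb (x axis). Red points are Akr1c18, Akr1c13 and Akr1c12, grey points other tested genes, and ticks genes not tested; Klf6 and Pitrm1 lie beyond the right edge. The 3 red points stand at 3.55 to 4.66, and every other tested gene shown lies between -0.46 and 0.84.

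Most tested aldo-keto reductases encoded elsewhere fell with IL-3. Of 11 listed, 7 were tested, of which 0 were called higher and 5 lower, beside 18.0% and 20.2% of all genes tested. Their median log2 fold change was -0.82. Akr1b8, an aldose reductase-like enzyme, fell from 12.4, 9.56 and 7.40 CPM to 4.15, 3.08 and 3.57 CPM (log2 fold change -1.45, edgeR adjusted p = 5.19e-05). Akr1b10, of the same subfamily, fell by 1.16 on the log2 scale (adjusted p = 2.44e-05), from 13.3 ± 1.40 to 5.95 ± 0.873 CPM. Akr7a5, an aflatoxin aldehyde reductase, fell by 0.82 (adjusted p = 0.000441), from 25.1 ± 3.86 to 14.3 ± 2.98 CPM.

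Akr1a1, the general aldehyde reductase, was the most abundant of these genes with PBS and was chosen for naming after its values were seen. It stood at 614, 628 and 544 CPM with PBS and 417, 402 and 391 CPM with IL-3 (log2 fold change -0.56, edgeR adjusted p = 1.06e-06). Kcnab3, a potassium channel beta subunit built on the aldo-keto reductase fold, had 34, 13 and 16 counts with PBS and 6, 4 and 6 with IL-3 (log2 fold change -1.94, adjusted p = 0.00280). All its IL-3 counts lay under the minimum count of 10, so that it was tested only through the PBS libraries. Akr1b3, aldose reductase, at -0.27, and Kcnab2, at -0.11, were not called with TMM scaling. With library totals all 7 were called lower, and without PBS replicate 3 there were 6 lower. The groups of Akr1b8, Akr1b10, Akr7a5, Akr1a1 and Kcnab3 did not overlap.

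In the steroid list of 40 genes (synthesis, reduction and receptors), 22 were tested, of which 5 were called higher and 7 lower, beside 18.0% and 20.2% of all genes tested, with a median log2 fold change of -0.25. Scaling by library totals gave 4 higher and 11 lower. The genes called included Cyp11a1, the mitochondrial enzyme that cuts the side chain of cholesterol to give pregnenolone, the precursor of progesterone. It was already abundant with PBS, at 1293, 1318 and 1453 CPM, and reached 3653, 3689 and 3693 CPM with IL-3. The groups were far apart, with a log2 fold change of 1.44 (SE 0.0462, edgeR adjusted p = 7.89e-13). The other genes of this list given here, apart from Srd5a1, Paqr8 and Paqr7, were chosen for naming after their values were seen. Hsd3b2, a member of the enzyme family that turns pregnenolone into progesterone, stood at 11.9 ± 1.26 and 11.7 ± 0.318 CPM (adjusted p = 0.900). Hsd3b1 had 0 counts, and Hsd3b3 and Hsd3b6 had 11 and 15 counts over the 6 libraries. Hsd3b7, also in the list, was called lower, from 48.6 ± 5.41 to 34.4 ± 3.33 CPM (edgeR adjusted p = 0.000712).

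Star, which moves cholesterol into mitochondria, stood at 1.24 ± 0.910 and 1.45 ± 0.383 CPM (edgeR adjusted p = 0.746). Of the proteins that pass electrons to Cyp11a1, Fdx1 stood at 13.6 ± 2.60 and 17.4 ± 1.05 CPM (adjusted p = 0.0651) and Fdxr at 11.2 ± 1.46 and 10.9 ± 1.59 CPM (adjusted p = 0.878). Fdx1 was called higher without PBS replicate 1 (log2 fold change 0.50, adjusted p = 0.0133). Cyp17a1, which leads from progesterone towards androgens, had 0 counts, and Srd5a2, a steroid reductase, had 0 counts as well. Srd5a1, the related reductase that acts on progesterone and testosterone, stood at 1.59 ± 0.283 and 0.787 ± 0.172 CPM (log2 fold change -1.0, edgeR adjusted p = 0.0339), a call lost under 8 of 13 other settings, among them without PBS replicate 1 or 3 or any IL-3 replicate (adjusted p from 0.0629 to 0.128). Its IL-3 libraries lay under the filter on low counts, so that Srd5a1 was tested only through the PBS libraries.

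Among receptors, the nuclear progesterone receptor Pgr had 38 counts over all 6 libraries and was not tested. The membrane progestin receptors Paqr8 and Paqr7 moved in opposite directions, and Paqr5, of the same family, had 29 counts over all libraries and was not tested. Paqr8 rose from 6.38, 7.01 and 9.95 CPM to 18.9, 20.2 and 22.4 CPM (log2 fold change 1.40, edgeR adjusted p = 3.33e-06). Paqr7 fell from 53.5, 58.1 and 60.2 CPM to 25.7, 23.1 and 27.5 CPM (log2 fold change -1.17, adjusted p = 3.01e-08). In neither gene did the groups overlap. Nr3c1, the glucocorticoid receptor, fell by 0.75 on the log2 scale (adjusted p = 1.12e-07), from 110 ± 2.95 to 65.5 ± 3.68 CPM. Of the progesterone receptor membrane components, Pgrmc1 was called higher, from 80.4 ± 3.53 to 105 ± 5.03 CPM (adjusted p = 0.000143). Pgrmc2 was called lower, from 52.8 ± 1.41 to 43.4 ± 4.55 CPM (adjusted p = 0.0139).

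Of 25 other enzymes listed that handle carbonyl compounds and aldehydes, 22 were tested, of which 4 were called higher and 13 lower, beside 18.0% and 20.2% of all genes tested. Scaling by library totals gave 3 higher and 15 lower, and the median log2 fold change with TMM was -0.45. Dhrs3, a retinal reductase, fell by 1.71 on the log2 scale (edgeR adjusted p = 1.84e-08), from 45.8 ± 1.93 to 14.2 ± 3.11 CPM. Cbr3, a carbonyl reductase, fell by 1.50 (adjusted p = 2.91e-06) and Aldh3b1, an aldehyde dehydrogenase, fell by 1.04 (adjusted p = 4.87e-06). Aldh1a2, which makes retinoic acid, had 2, 0 and 1 counts with PBS and 11, 15 and 27 with IL-3, and was called higher (adjusted p = 0.000111). All its PBS counts lay under the floor of 3 counts, so that it was tested only through the IL-3 libraries, and its fitted log2 fold change moved from 3.97 to 4.78 without PBS replicate 1.

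Targets and partners of NRF2, the factor that induces detoxifying reductases under oxidative stress, were listed because Akr1c genes are often counted among them in other cells. Of 23 listed, 22 were tested, of which 6 were called higher and 12 lower (among them Keap1, its inhibitor, higher, and Nfe2l2, its own gene, lower), beside 18.0% and 20.2% of all genes tested, with a median log2 fold change of -0.24. With library totals there were 3 higher and 14 lower. The number called higher was 4 in the DESeq2 test and 4 to 6 with a library left out. Hmox1, heme oxygenase, fell from 1290, 1415 and 1310 CPM to 560, 602 and 597 CPM (log2 fold change -1.19, edgeR adjusted p = 2.19e-11). Gstm1, a glutathione transferase, fell by 1.27 on the log2 scale (adjusted p = 5.10e-10). Nqo1, a quinone reductase, rose from 61.6, 61.5 and 62.5 CPM to 103, 122 and 115 CPM (log2 fold change 0.88, adjusted p = 5.20e-08). Me1, malic enzyme, was called higher at 0.93 (adjusted p = 0.0328), and this call was lost under 7 of 13 other settings, among them without PBS replicates 1, 2 or 3 (adjusted p = 0.0554, 0.0711 and 0.103) and without IL-3 replicates 2 or 3 (0.178 and 0.0501).

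**Figure D5:**
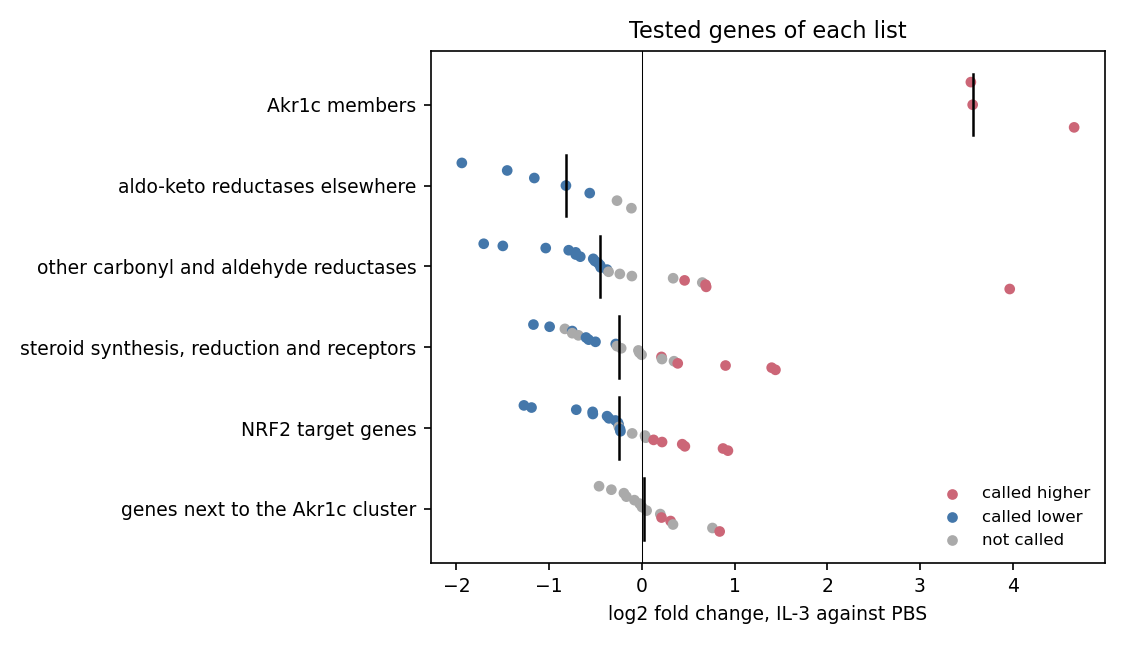
Log2 fold change with IL-3 (x axis) of the tested genes of each list (rows, genes spread vertically in order of their value). Red points were called higher, blue lower and grey not called, and black lines are medians. The 3 Akr1c genes stand at 3.55 to 4.66, apart from the other aldo-keto reductases, whose median is -0.82.

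Genes whose profile over the 6 libraries was most like that of a family member were found by the root mean square difference of log2 CPM, each gene centred on its mean. For Akr1c13 the nearest were Socs3, a feedback inhibitor of cytokine signalling (difference 0.061), Tarm1, a receptor of myeloid cells (0.0925), and Adam19, a membrane metalloproteinase (0.0949), and Akr1c12 came next at 0.107. Socs3 stood at 30.7 ± 1.07 CPM with PBS and 379 ± 6.28 CPM with IL-3. For Akr1c18 the nearest were Lif, a cytokine of the IL-6 family (0.143), AC142112.1 (0.170) and Serpina3g, a protease inhibitor (0.179). Lif stood at 3.75 ± 0.224 CPM with PBS and 83.0 ± 11.0 CPM with IL-3. Akr1c13 and Akr1c18 differed by 0.505, which placed Akr1c13 at rank 27 of all tested genes by nearness to Akr1c18 and Akr1c18 at rank 75 by nearness to Akr1c13.

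Levels of cell type markers also moved with IL-3. The summed level of 9 basophil markers was 10971 to 12223 CPM with PBS and 17313 to 17575 CPM with IL-3, with 7 called higher and 1 lower, beside 18.0% and 20.2% of all genes tested. The 10 monocyte and macrophage markers summed to 11770 to 12707 CPM with PBS and 6176 to 6809 CPM with IL-3, with 2 called higher and 7 lower, and 8 mast cell markers to 880 to 1017 and 1454 to 1584 CPM, with 4 of the 7 tested called higher and 1 lower. Neutrophil markers summed to 65.7 to 105 and 69.0 to 127 CPM, with 1 of the 5 tested called higher and 1 lower. Eosinophil markers summed to 155 to 173 and 95.0 to 136 CPM, with 1 of 5 higher and 3 lower. T and NK cell markers summed to 10.6 to 15.6 and 34.8 to 35.7 CPM, with 1 of 5 higher and 0 lower and with Gzma at 0 in every library. In bulk samples, more cells of a type and more RNA per cell cannot be told apart, and the part of such shifts in the values above was not tested.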

How the data were processed

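RNA-seq was performed on 3 PBS and 3 IL-3 samples. Per the study's methods, the authors amplified whole transcriptomes of BMBAs (TAS-Seq), trimmed reads with Cutadapt 3.4, mapped them to reference RNA with Bowtie2 and deposited raw counts per gene. The methods name GRCm38 and the labels' processing notes name GRCm39. The sources used here do not give how strand or reads with several origins were handled. GENCODE M21 (GRCm38) held 96.1% of the symbols.

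The count model was that of edgeR 4.0.16 (R 4.3.3; filterByExpr with a minimum count of 10, TMM, quasi-likelihood F test, Benjamini-Hochberg adjustment over 16675 genes, called at adjusted p under 0.05), after the pipeline was tested on simulated data. CPM and fold changes use TMM-scaled library sizes, and a prior count of 0.125 entered fitted log2 fold changes. Alternatives used DESeq2 1.42.0 and limma 3.58.1 (voom). Coding sequences were aligned globally with Biopython 1.88.

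The members, lists and tests were chosen with earlier results of these data known. Named were all members, the tested genes of the locus, the 4 called genes of every other list with the largest absolute log2 fold change, the 3 non-members most like Akr1c13 or Akr1c18, and Mcpt8, Cd200r3 and Prss34. Other genes of these lists were named outside this rule, among them Akr1a1, Akr1b3, Kcnab2, Keap1, Nfe2l2 and further steroid genes.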

Additional observations from a re-analysis of the deposited data

How the results depend on the processing

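The rise of the Akr1c genes was fixed by how they were chosen, so its values under 14 alternatives are a description and no sign of stability (scaling by DESeq2 size factors or library totals, other filters on low counts, the DESeq2 and limma-voom tests, a replicate block, a prior count of 2 and each library left out; 13 for the summed reads, without the prior count). Log2 fold changes ran from 3.39 to 3.57 for Akr1c13, 3.41 to 3.64 for Akr1c12 and 4.50 to 4.72 for Akr1c18, and that of the summed reads from 3.42 to 3.61. The number of genes called ran from 4547, at an adjusted p threshold of 0.01, to 6728, with library totals. No pairing by replicate number was seen (correlations of same-numbered deviations -0.0087, -0.0162 and -0.0224, and no sample correlated best with its own number). Such correlations cannot show whether libraries shared a source. With a replicate block 6089 genes were called, Srd5a1 was not (adjusted p = 0.0603) and Fdx1 was (0.0439), and 6 in place of 5 aldo-keto reductases encoded elsewhere were called lower.

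Of the other locus genes, 1 (Akr1e1) was called with library totals, and 0 to 1 with a library left out. Of the genes next to the cluster, 3 to 5 were called with a library left out; without PBS replicate 3, Akr1e1 and Pitrm1 were added. Signs of values near 0 turned with library totals for Gm47951 (-0.16), Gm47450 (-0.11) and Prss34 (-0.15, adjusted p = 0.0255). With a library left out they ran from -0.028 to 0.62 for Gm40655, -0.18 to 0.051 for Net1, -0.092 to 0.11 for Gm47951, -0.068 to 0.0097 for Rpl29-ps2, -0.25 to 0.24 for Gm47450, -0.027 to 0.056 for Prss34, -0.14 to 0.98 for Star, -0.14 to 0.086 for Fdxr and -0.11 to 0.026 for Hsd3b2. The cause was not tested. About 20 counts per library limit the PBS level of Akr1c18.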
